A study of Homo sapiens with 9 samples.

Results

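MYC and the proteins of the MAX network were followed in A549 cells after depletion of Cyclin K. The 10 members, MYC, MYCL, MAX, MXI1, MXD1, MXD3, MXD4, MNT, MGA and MLX, were taken as every row of the deposited expression tables that carries one of these symbols. All 10 were found in the tables, which list 56252 features each, and all 10 passed the filter on low values (0.1 FPKM or more in 3 or more libraries) that left 21048 genes for testing. FPKM counts sequenced fragments per kilobase of gene, corrected for library depth. A total of 9 members stood on a row of their own, and MXD1 shared its row with the overlapping gene SNRNP27, so that the values of these genes cannot be told apart.

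MYC is a transcription factor of the basic helix-loop-helix leucine zipper (bHLHZ) class that binds DNA only as a heterodimer with MAX, mostly at the E-box CACGTG, and that drives ribosome production, nucleotide synthesis and cell growth. MAX also pairs with the MXD proteins (MXD1, MXI1, MXD3, MXD4), MNT and MGA, which bind the same sites and bring histone deacetylase or Polycomb-like repressor complexes to them. MLX is the counterpart of MAX for the glucose-sensing proteins MondoA and ChREBP and pairs with some of the MXD proteins and MNT as well. The MYC mRNA and protein are short-lived, and in lung cancer MYC or MYCL can be amplified.

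A549, an established human lung cancer cell line, was transfected for 48 h with scrambled siRNA (labelled siCtrl) or with siCyclinK#1 or siCyclinK#2, a pair of siRNAs against the mRNA of Cyclin K. The sequencing gave 3 total RNA libraries per group and 9 altogether, and the groups share the cell line, time and transfection and differ in the siRNA. Cyclin K is the partner of the kinases CDK12 and CDK13, which phosphorylate RNA polymerase II, and the comparison asks which mRNAs change when it is depleted. The labels speak of independent samples and do not say that these were separate cultures, so that a p-value measures the spread between these libraries, which may be technical.

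The depth recovered from the steps of the low FPKM values differed little between libraries, from 31332500 to 33769400 reads. CCNK, the gene of Cyclin K, fell from a mean FPKM of 7.02 to 0.809 with siCyclinK#1 and 0.844 with siCyclinK#2. Libraries of the same group correlated over 11243 genes with r from 0.981 to 0.986 and libraries of different groups from 0.895 to 0.949. The A549 markers ALDH1A1, AKR1B10 and KRT8 had an FPKM of at least 49.7 in every library, while PECAM1, VWF, PTPRC, DCN and COL1A2, markers of endothelial cells, leukocytes and fibroblasts, did not exceed 0.0919. COL1A1, a further fibroblast marker, moved with the siRNA, from 2.03 ± 0.22 FPKM (SD, n = 3) with scrambled siRNA to 3.19 ± 0.10 with siCyclinK#2 and up to 14.7 in a library of siCyclinK#1. On the log2 scale COL1A1 rose by 2.73 with siCyclinK#1 and 0.63 with siCyclinK#2 (adjusted p = 5.18e-08 and 0.000334 from limma), and its part in the results was not tested. In bulk RNA, fewer cells in a given state and less RNA per cell cannot be told apart.

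The promoters of members that hold a perfect E-box are shown because this is the site that the dimers of the network bind. Their genes were among the members called below. The windows of MXD1, MXD3 and MGA, whose rows were also called, held no such E-box. The reference window of each start site runs from 250 bases before to 50 bases after it (RefSeq, GRCh38.p14). Windows were given for 9 members, 14 windows in all, and MYC was left out. The motif CACGTG, which reads the same on both strands, was searched in each. It was found in 1 window each of MXD4, MNT and MLX, printed 5′ to 3′ on the strand of the gene with the motif in capitals.
MXD4, chr4:2262060-2262359, minus strand: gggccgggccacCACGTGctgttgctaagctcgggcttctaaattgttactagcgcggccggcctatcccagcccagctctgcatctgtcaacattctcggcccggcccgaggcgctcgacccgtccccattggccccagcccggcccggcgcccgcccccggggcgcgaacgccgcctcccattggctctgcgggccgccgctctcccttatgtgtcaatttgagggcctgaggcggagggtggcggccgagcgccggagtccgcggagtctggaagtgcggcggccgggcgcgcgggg
MNT, chr17:2401011-2401310, minus strand: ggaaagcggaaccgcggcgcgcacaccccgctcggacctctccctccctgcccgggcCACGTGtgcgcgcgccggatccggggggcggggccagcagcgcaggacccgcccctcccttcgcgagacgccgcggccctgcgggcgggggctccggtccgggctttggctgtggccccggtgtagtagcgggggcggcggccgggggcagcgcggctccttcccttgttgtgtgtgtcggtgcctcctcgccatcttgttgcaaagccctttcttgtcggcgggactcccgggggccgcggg
MLX, chr17:42566850-42567149, plus strand: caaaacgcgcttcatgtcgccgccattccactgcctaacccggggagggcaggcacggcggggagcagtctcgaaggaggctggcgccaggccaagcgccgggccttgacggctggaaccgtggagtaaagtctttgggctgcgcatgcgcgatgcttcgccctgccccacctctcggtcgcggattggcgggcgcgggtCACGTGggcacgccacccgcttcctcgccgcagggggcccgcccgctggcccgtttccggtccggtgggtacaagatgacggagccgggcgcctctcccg
The motif starts at position -238 from the start site in MXD4, -193 in MNT and -50 in MLX. Of all 35116 windows in the reference, 7.26% held it. A match describes these letters and does not show that the site was bound.

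With both siRNAs together, 3 members rose (MXD4, MNT and MGA), 3 fell (the MXD1 row, MXD3 and MLX) and 4 (MYC, MYCL, MAX and MXI1) did not pass the test, at an adjusted p under 0.05 from limma with Benjamini-Hochberg adjustment over all tested genes. Of all tested genes, 28.6% passed in this comparison. The background was 17% for a higher and 11.5% for a lower level. All members but MYCL averaged 1 FPKM or more. When the 11243 genes at this level were fitted alone, 5192 were called, 3072 higher and 2120 lower. The shares of all tested genes given here and below include weaker genes. The ranges of the 6 siRNA libraries and the 3 scrambled libraries did not overlap for the same 6 members, against 32.6% of all tested genes. The median log2 difference of the members was 0.18, beside 0.06 for all tested genes. The study's methods call a gene when it changes more than 3-fold at a p below 0.01, taken here as the p without adjustment, and by that rule 0 members were called against 2.29% of all genes. The rule also called 0 members with siCyclinK#1 (background 4.67%), with siCyclinK#2 (1.94%) and between the siRNAs (1.53%).

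**Figure D1:**
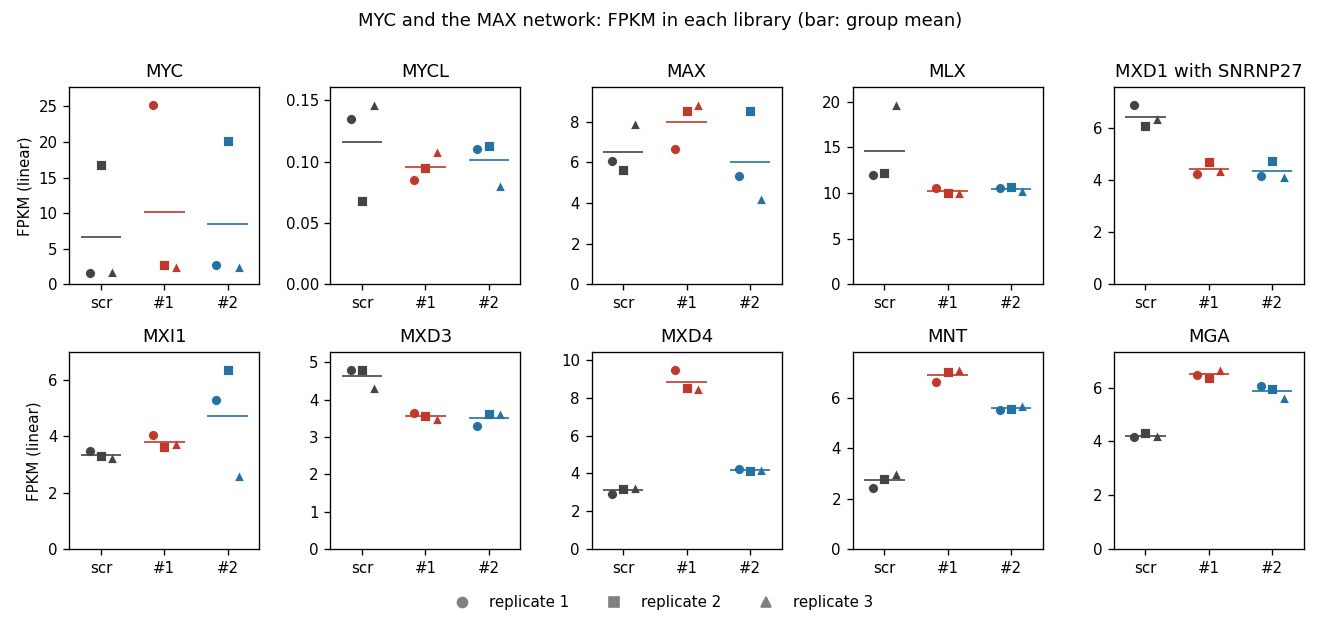
FPKM of the 10 members (linear axes from 0, a different scale in each panel) in each library with scrambled siRNA (scr), siCyclinK#1 (#1) and siCyclinK#2 (#2); marker shapes give the replicate number and bars the mean of 3 libraries. MYC has 1 library far above the others in each group (16.7, 25.2 and 20.1), while MXD4, MNT and MGA lie higher in all 6 siRNA libraries than in the scrambled ones.

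With scrambled siRNA the order of the mean FPKM was MLX (14.6 ± 4.35, SD, n = 3), MYC (6.71 ± 8.69), MAX (6.52 ± 1.21), the MXD1 row (6.44 ± 0.40), MXD3 (4.62 ± 0.27), MGA (4.22 ± 0.08), MXI1 (3.34 ± 0.13), MXD4 (3.11 ± 0.16), MNT (2.72 ± 0.29) and MYCL (0.116 ± 0.042). FPKM is per length, so that levels can be set beside each other across genes. Neighbours whose ranges over the 3 libraries overlapped were MLX and MYC, MYC and MAX, MAX and the MXD1 row, MXD3 and MGA, and MXD4 and MNT. Their order is therefore not resolved. MYC ranged from 1.63 to 16.7 with a median of 1.76, and its range overlapped that of every other member but MYCL. The place of MYC among them is therefore not resolved either.

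MYC (ENSG00000136997, chromosome 8 of GRCh38 from 127735434 to 127741434, plus strand) stood apart from the other members in its spread. Its FPKM was 1.63, 16.7 and 1.76 in scrambled libraries 1, 2 and 3. It was 25.2, 2.78 and 2.48 with siCyclinK#1, and 2.79, 20.1 and 2.41 with siCyclinK#2. In each group 1 library was high and the other two were low and near each other. The high library was replicate 2 with scrambled siRNA and siCyclinK#2 and replicate 1 with siCyclinK#1, and the ranges of all 3 groups overlapped.

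The same values correspond to 165, 1600 and 171 MYC reads in the scrambled libraries. With siCyclinK#1 they correspond to 2444, 261 and 245 reads, and with siCyclinK#2 to 269, 2002 and 230 reads. The recovered numbers were whole to within 0.2 reads in 9 of 9 libraries. The 95% Poisson limits, which cover counting error only, ran from 141 to 192 for scrambled library 1 and from 1520 to 1680 for scrambled library 2. The intervals of the high and low libraries of a group lay far apart, so counting error was smaller than the difference between replicates. No other row with a reference gene overlaps the span of MYC. Assembled loci with no reference gene were not searched.

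The highest MYC value was 10.3 times the lowest with scrambled siRNA, 10.2 times with siCyclinK#1 and 8.35 times with siCyclinK#2. On the log2(FPKM + 0.1) scale the SD between replicates, pooled over the groups, was 1.80 for MYC, where the median of the 11243 genes averaging 1 FPKM or more was 0.10. Only 5 of these genes had a larger SD. Chosen after the values were seen, these are AC008982.2, FBXO34, SNX22, AC022400.8 and AP003733.4. A ratio over 5 in every group was found for 2 of the 11243 genes (0.0178%), MYC and FBXO34, and one over 3 for 11 genes (0.0978%). FBXO34, an F-box protein gene, had its low values of 0.483, 0.387 and 0.609 FPKM in scrambled library 2, siCyclinK#1 library 3 and siCyclinK#2 library 2, with 6.82 to 8.23 in the others. The low libraries of FBXO34 are the high libraries of MYC in the scrambled and siCyclinK#2 groups and not with siCyclinK#1.

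**Figure D2:**
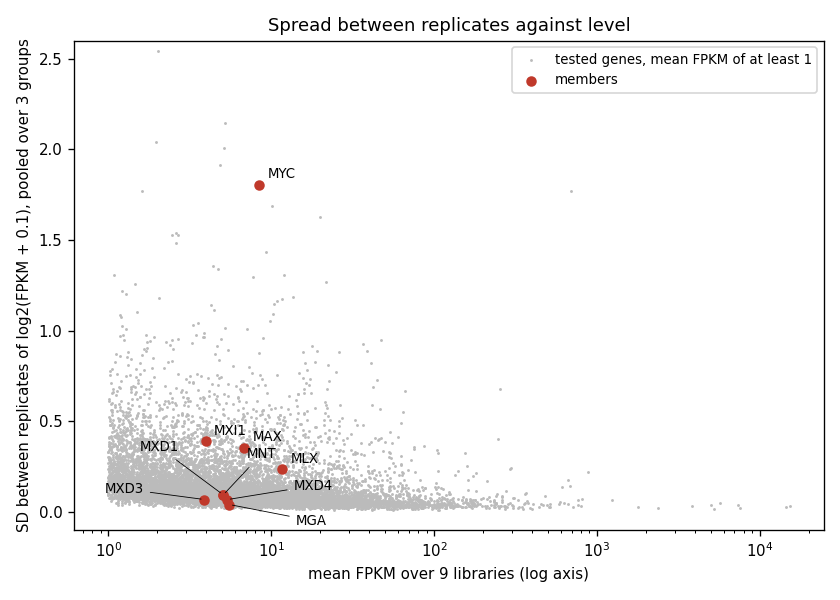
SD between replicates of log2(FPKM + 0.1), pooled over the 3 groups, against mean FPKM over 9 libraries (log axis) for the 11243 genes averaging 1 FPKM or more (grey) and for the 9 members among them (red; MYCL is below this level). MYC lies at 1.80, above nearly all genes, followed by MXI1 at 0.39 and MAX at 0.35, and the other members lie between 0.04 and 0.23.

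No difference of MYC between the groups was detectable at this spread. The mean FPKM was 6.71 ± 8.69 (SD, n = 3) with scrambled siRNA, 10.1 ± 13.0 with siCyclinK#1 and 8.43 ± 10.1 with siCyclinK#2. On the log2 scale MYC differed by 0.54 over both siRNAs (standard error 1.00, 95% interval -1.71 to 2.78, adjusted p = 0.735 from limma). The interval is wide enough to hold both a fall and a rise of more than 3-fold. It was 0.60 with siCyclinK#1 (adjusted p = 0.739) and 0.48 with siCyclinK#2 (adjusted p = 0.814). With 1 library left out, the value over both siRNAs lay between -0.03 and 1.62 and was negative only without scrambled library 1.

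MYCL (ENSG00000116990, chromosome 1 from 39895426 to 39902256), the family member first found amplified in small-cell lung cancer, was close to the limit of measurement. Its FPKM was 0.135, 0.0682 and 0.146 with scrambled siRNA, 0.0854, 0.0946 and 0.108 with siCyclinK#1, and 0.111, 0.113 and 0.0806 with siCyclinK#2, from 11 to 24 reads a library. The groups overlapped, and the log2 difference over both siRNAs was -0.11 (95% interval -0.61 to 0.40, adjusted p = 0.768 from limma). An antisense gene shares 226 exonic bases with it, and the counting is not stated to use the strand.

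MAX (ENSG00000125952, chromosome 14 from 65006174 to 65102695), the shared partner of MYC, the MXD proteins, MNT and MGA, varied more between replicates than most genes. It had an FPKM of 6.07, 5.60 and 7.89 with scrambled siRNA, 6.67, 8.54 and 8.81 with siCyclinK#1, and 5.32, 8.51 and 4.19 with siCyclinK#2. The library that was high for MYC was the highest for MAX with siCyclinK#2 and the lowest for MAX in the other two groups. The log2 difference over both siRNAs was 0.07 (95% interval -0.47 to 0.61, adjusted p = 0.869 from limma) and turned negative without scrambled library 2, without siCyclinK#1 library 3 and under both rescalings between libraries. It was 0.30 with siCyclinK#1 and -0.16 with siCyclinK#2, and both missed the threshold (adjusted p = 0.373 and 0.664). The direct difference between the siRNAs was 0.46 (adjusted p = 0.21), and 0.74 (adjusted p = 0.0227) without siCyclinK#2 library 2.

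MLX (ENSG00000108788, chromosome 17 from 42567068 to 42573239), whose promoter is shown above, had the highest mean level of the members with scrambled siRNA, in an order with MYC that is not resolved. Its FPKM was 11.9, 12.2 and 19.6 with scrambled siRNA, 10.5, 10.0 and 10.0 with siCyclinK#1, and 10.5, 10.7 and 10.2 with siCyclinK#2. Scrambled library 3 was far above the other two, and all 6 siRNA libraries lay below all 3 scrambled ones. On the log2 scale it differed by -0.46 over both siRNAs (standard error 0.14, adjusted p = 0.0349 from limma), and -0.22 (adjusted p = 0.0533) without scrambled library 3. The call was also lost without any 1 of the siCyclinK#1 libraries, or siCyclinK#2 library 1 or 3, with an adjusted p of at most 0.059, and with eBayes without trend (0.0588). With siCyclinK#2 by itself MLX was called without scrambled library 3 (-0.21, adjusted p = 0.0139 from limma), though not with all libraries. Of its exonic bases 770 overlap PSMC3IP, a recombination gene on the opposite strand, and reads of these genes in the overlap cannot be told apart unless the strand was used. PSMC3IP had 6.82 ± 0.39 FPKM with scrambled siRNA, 3.99 ± 0.44 with siCyclinK#1 and 6.36 ± 0.70 with siCyclinK#2, and its part in the values of MLX was not tested.

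Among the repressor partners of MAX, MNT (ENSG00000070444, chromosome 17 from 2384060 to 2401118) had the largest rise over both siRNAs. MNT is present in growing and resting cells alike and competes with MYC for MAX. Its FPKM was 2.41, 2.78 and 2.98 with scrambled siRNA, 6.63, 7.02 and 7.09 with siCyclinK#1, and 5.51, 5.54 and 5.69 with siCyclinK#2. All 6 siRNA libraries were above the scrambled ones, and those of siCyclinK#1 were above those of siCyclinK#2. The log2 difference was 1.16 over both siRNAs (standard error 0.12, adjusted p = 7.85e-05 from limma), 1.32 with siCyclinK#1 (standard error 0.08, adjusted p = 1.92e-06) and 1.01 with siCyclinK#2 (standard error 0.08, adjusted p = 1.64e-05). The exact two-sided permutation test over both siRNAs gave p = 0.0119, the smallest that 6 libraries against 3 allow. With 3 libraries against 3 the smallest exact p is 0.1.

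MXD4 (ENSG00000123933, chromosome 4 from 2247432 to 2262294), which encodes a MAX partner linked to differentiation and to quiescent cells, rose with each siRNA and far more with siCyclinK#1. Its FPKM was 2.93, 3.16 and 3.23 with scrambled siRNA, 9.45, 8.51 and 8.47 with siCyclinK#1, and 4.25, 4.11 and 4.18 with siCyclinK#2. The 3 groups did not overlap. The log2 difference was 1.47 with siCyclinK#1 (standard error 0.06, adjusted p = 3.48e-07 from limma) and 0.42 with siCyclinK#2 (standard error 0.06, adjusted p = 0.000983). Over both siRNAs it was 0.95 (standard error 0.30, adjusted p = 0.0411), a call that was lost without any 1 of the scrambled or siCyclinK#1 libraries (adjusted p from 0.0622 to 0.122), with no filter on low values (0.0605), under quantile normalization (0.0639) and with eBayes without trend (0.06). The 6 siRNA libraries form separate levels here, so the pooled comparison carries the difference between the siRNAs in its spread.

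MGA (ENSG00000174197, chromosome 15 from 41621224 to 41773081), a large protein with a T-box and a bHLHZ domain that belongs to a Polycomb-like complex, had the smallest spread of the members. Its FPKM was 4.15, 4.31 and 4.20 with scrambled siRNA, 6.48, 6.37 and 6.65 with siCyclinK#1, and 6.06, 5.94 and 5.61 with siCyclinK#2. All 6 siRNA libraries were above the scrambled ones. The log2 difference was 0.54 over both siRNAs (standard error 0.08, adjusted p = 0.000592 from limma), 0.61 with siCyclinK#1 and 0.47 with siCyclinK#2 (adjusted p = 1.5e-05 and 0.000127).

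MXD3 (ENSG00000213347, chromosome 5 from 177301461 to 177312757), the MXD member found in S phase of dividing cells, fell. Its FPKM was 4.78, 4.78 and 4.31 with scrambled siRNA, 3.64, 3.55 and 3.47 with siCyclinK#1, and 3.30, 3.62 and 3.61 with siCyclinK#2. The siRNA libraries lay below the scrambled ones, with a log2 difference of -0.38 over both siRNAs (standard error 0.08, adjusted p = 0.0047 from limma). The row of MXD3 is a locus assembled by StringTie, and its values came out as whole reads in 4 of 9 libraries. Its exons share 926 bases with RAB24 on the same strand and 1158 with PRELID1 on the opposite one, which had 45.4 FPKM with scrambled siRNA and 37.1 over both siRNAs (log2 difference -0.31, adjusted p = 0.304 from limma). Their part in the values of MXD3 was not tested.

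The row shared by MXD1 and SNRNP27 had an FPKM of 6.88, 6.10 and 6.34 with scrambled siRNA, 4.25, 4.72 and 4.36 with siCyclinK#1, and 4.14, 4.75 and 4.12 with siCyclinK#2. MXD1 (ENSG00000059728, chromosome 2 from 69897688 to 69942945) is the founding MXD protein, induced when cells differentiate, and SNRNP27 encodes a protein of the spliceosome. The row fell by 0.54 on the log2 scale over both siRNAs (standard error 0.08, adjusted p = 0.000869 from limma), by 0.52 with siCyclinK#1 and by 0.56 with siCyclinK#2, and the siRNA and scrambled libraries did not overlap. Which of the genes carries the fall cannot be told from these values.

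MXI1 (ENSG00000119950, chromosome 10 from 110207605 to 110287365), an MXD protein that is also a target of hypoxia-inducible factors, depended on single libraries of siCyclinK#2. Its FPKM was 3.49, 3.31 and 3.24 with scrambled siRNA, 4.06, 3.64 and 3.73 with siCyclinK#1, and 5.27, 6.34 and 2.58 with siCyclinK#2. With siCyclinK#2, libraries 1 and 2 were the highest of all 9 and library 3 the lowest. The log2 difference was 0.29 over both siRNAs, 0.18 with siCyclinK#1 and 0.39 with siCyclinK#2 (adjusted p = 0.397, 0.634 and 0.313 from limma). Without siCyclinK#2 library 3 it was 0.77 with siCyclinK#2 (adjusted p = 0.000694) and -0.59 between siCyclinK#1 and siCyclinK#2 (adjusted p = 0.00353).

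**Figure D3:**
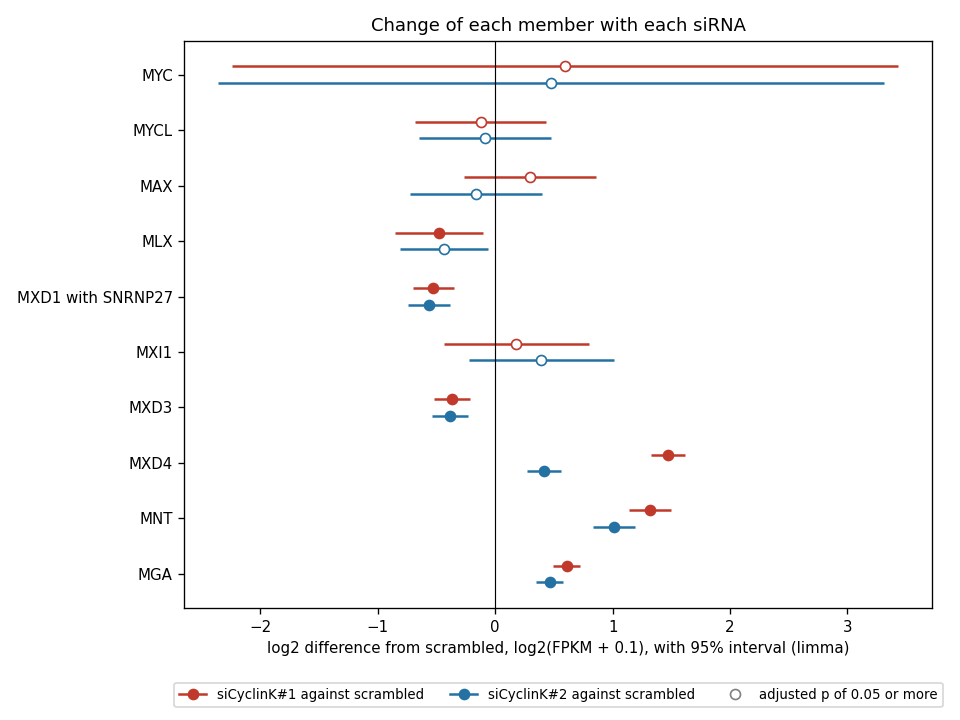
Log2 difference of each member from scrambled siRNA on log2(FPKM + 0.1), with 95% intervals from limma, for siCyclinK#1 (red) and siCyclinK#2 (blue); filled points have an adjusted p under 0.05. MNT, MXD4 and MGA lie above 0 with each siRNA, the MXD1 row and MXD3 lie below 0, and the interval of MYC spans from -2.24 to 3.43 with siCyclinK#1.

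Taken singly, siCyclinK#1 changed 6 members (44.8% of all tested genes were called), 3 higher and 3 lower. Of the lower ones MLX passed at -0.47 with an adjusted p of 0.0436 from limma, and lost its call in 10 of 20 alternatives, among them leaving out any 1 siCyclinK#1 library (adjusted p from 0.077 to 0.1) or any 1 siCyclinK#2 library (0.0606 to 0.0616). siCyclinK#2 changed 5 members (34.9% of all tested genes), 3 higher and 2 lower, with MLX at -0.44 and an adjusted p of 0.0713 from limma. MLX gained a call with siCyclinK#2 in 4 of 20 alternatives. These were median-ratio rescaling (adjusted p = 0.0487 from limma), quantile normalization (0.0366) and leaving out scrambled library 1 (0.0383) or 3 (0.0139). Among the 11243 genes averaging 1 FPKM or more, fitted alone, 7507 were called with siCyclinK#1 and 6434 with siCyclinK#2. All members but MYCL reach this level. The median difference of the members was 0.24 with siCyclinK#1 and 0.15 with siCyclinK#2, beside 0.10 and 0.01 for all tested genes. Rescaling by median ratios moved the median of all genes with siCyclinK#1 from 0.10 to 0.00. These comparisons share the scrambled libraries.

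When siCyclinK#1 was tested directly against siCyclinK#2, 2 members differed, MXD4 and MNT, where 29.4% of all tested genes were called, 17.1% higher and 12.3% lower with siCyclinK#1. MXD4 was higher with siCyclinK#1 by 1.06 on the log2 scale (95% interval 0.91 to 1.20, adjusted p = 7.19e-06 from limma). For MNT the difference was 0.30 (95% interval 0.13 to 0.48, adjusted p = 0.0177), and this call was lost without siCyclinK#1 library 2 or 3 or siCyclinK#2 library 1 or 2 (adjusted p from 0.051 to 0.0579) and under median-ratio rescaling (adjusted p = 0.0507). MGA differed by 0.15 (95% interval 0.03 to 0.26) and missed the adjusted threshold (adjusted p = 0.0626). For the MXD1 row and MXD3 the intervals of the difference ran from -0.14 to 0.21 and from -0.13 to 0.17. Among all genes called between the siRNAs 58.1% were higher with siCyclinK#1, and 47.1% after median-ratio rescaling.

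Other helix-loop-helix genes that bind E-boxes or belong to the extended network were followed as a list of 9, of which 8 were tested. With both siRNAs 4 rose and 0 fell, where 17% of all tested genes rose and 11.5% fell, and the median log2 difference was 0.36, beside 0.06 for all tested genes. Tested singly, 4 rose and 2 fell with siCyclinK#1, beside 26.8% and 18.1% of all tested genes. With siCyclinK#2 5 rose and 0 fell, beside 19.8% and 15.2%. MLXIP, which encodes MondoA, the glucose-sensing partner of MLX, had an FPKM of 4.90, 5.05 and 3.97 with scrambled siRNA, 6.22, 8.78 and 8.57 with siCyclinK#1, and 6.78, 6.61 and 6.68 with siCyclinK#2. Its siRNA libraries lay above the scrambled ones (log2 difference 0.63, adjusted p = 0.00618 from limma). BHLHE40, a repressor that also binds E-boxes, rose by 1.03, the circadian activator ARNTL by 0.43 and USF2 by 0.29. BHLHE40, ARNTL and CLOCK of this list are not of the bHLHZ class. Of 4 targets of MondoA and MLX, 1 fell, ARRDC2 (-0.83), and 0 rose with both siRNAs together. Against the same shares of all tested genes, 1 rose and 1 fell with siCyclinK#1, and 0 rose and 2 fell with siCyclinK#2. ARRDC3 differed by 0.48 with siCyclinK#1 and -0.28 with siCyclinK#2 (adjusted p = 0.000383 and 0.0105 from limma). TXNIP and ARRDC4 were near the limit of measurement, at means of 0.08 and 0.097 FPKM.

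Cofactors of the network moved in both directions. Of 17 tested MYC coactivators 6 rose and 4 fell, or 58.8% against 28.6% of all tested genes, with a median of 0.16 beside 0.06. All 17 averaged 1 FPKM or more, a level at which 5192 of 11243 genes were called when fitted alone. CDK9, the kinase of the elongation factor P-TEFb, rose by 0.92, ZBTB17, the MYC partner MIZ1, by 0.77, TOP2B, a topoisomerase, by 0.67 and RUVBL2, an ATPase of chromatin remodellers, by 0.43. Of 18 corepressors of the MXD proteins, MNT and MGA, 3 rose and 3 fell, or 33.3%, with a median of 0.11. Called were 28.6% of all tested genes, and 5192 of the 11243 averaging 1 FPKM or more. HDAC1, a histone deacetylase, rose by 1.15 and SUDS3, a subunit of the SIN3 complex, by 0.47, while E2F6 and RING1, subunits of the complex that holds MGA, had log2 differences of -0.60 and -0.59.

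Of 15 genes of MYC protein turnover, 3 rose, 2 fell and 10 did not pass the test with both siRNAs together. The called share was 33.3%, beside 28.6% of all tested genes and 5192 of the 11243 genes averaging 1 FPKM or more. The median of 0.06 was that of all genes. FBXO32, a ubiquitin ligase subunit, rose by 1.38, GSK3B, a kinase that marks MYC for degradation, by 0.79 and PPP2R5A, a subunit of the phosphatase PP2A, by 0.63. CIP2A, an inhibitor of PP2A that protects MYC, shares a row with AC069499.1, and this row had a log2 difference of -0.77. Tested singly, 4 turnover genes rose and 4 fell with siCyclinK#1, beside 26.8% and 18.1% of all tested genes. With siCyclinK#2 5 rose and 5 fell, beside 19.8% and 15.2%. The pooled test carries differences between the siRNAs in its spread.

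Of 59 genes known to be activated by MYC, 56 were tested, and with both siRNAs 6 rose and 24 fell. Their median log2 difference was -0.18, beside 0.06 for all tested genes, of which 17% rose and 11.5% fell. The falls included PPAT and PAICS, enzymes of purine synthesis (-0.83 and -0.72), and the rises NOLC1, a nucleolar protein (1.34), and HSPD1, a mitochondrial chaperone (0.62). PAICS was not called with siCyclinK#2 by itself (-0.49, adjusted p = 0.0581 from limma). With siCyclinK#1 10 rose and 34 fell (median -0.30, beside 26.8% and 18.1% of all tested genes), and with siCyclinK#2 16 rose and 25 fell (median -0.08, beside 19.8% and 15.2%). Of this list 55 genes averaged 1 FPKM or more. Of the 11243 genes at this level, fitted alone, 3072 were higher and 2120 lower with both siRNAs. With siCyclinK#1 4253 of them were higher and 3254 lower, and with siCyclinK#2 3698 and 2736. Tested directly, 29 of the 56 were lower and 5 higher with siCyclinK#1 than with siCyclinK#2.

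For the 55 of its genes averaging 1 FPKM or more, the SD between replicates on the log2(FPKM + 0.1) scale had a median of 0.07 and ran from 0.01 to 0.58, beside 0.10 for the median of all such genes and 1.80 for MYC. The highest was that of POLR3G, named after its value was seen, and 0 of the 55 reached the SD of MYC. Only 5 of all 11243 genes at this level had a larger SD than MYC, so this count does not set the list apart. Whether these genes follow the level of MYC was not tested. Splitting libraries by their MYC level was not done, since that level is itself an outcome.

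**Figure D4:**
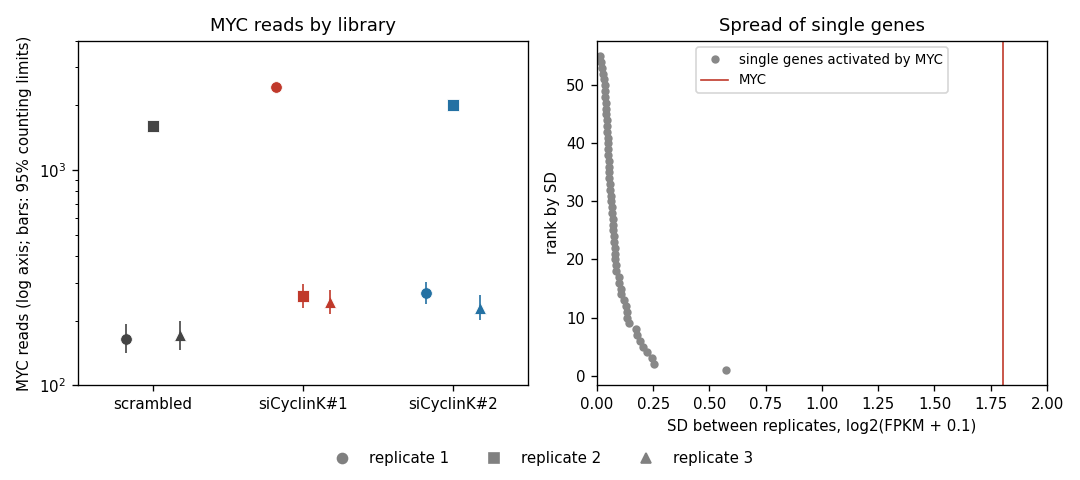
Left, recovered MYC reads in each library (log axis, bars give 95% counting limits, marker shapes the replicate number); right, SD between replicates of log2(FPKM + 0.1) for each of the 55 genes of the MYC-activated list averaging 1 FPKM or more, ranked, with a line at the SD of MYC. Each group has 1 library with far more MYC reads than the others. The single genes lie between 0.01 and 0.58, below MYC at 1.80, as do nearly all genes of this level.

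Of 13 tested genes that MYC is known to repress, 0 rose and 5 fell with both siRNAs, where 17% of all tested genes rose and 11.5% fell, with a median of -0.20 beside 0.06. CCND1, which encodes Cyclin D1, had a log2 difference of -1.96, CEBPA, a differentiation factor, of -1.56, CDKN1B, the cell cycle inhibitor p27, of -1.25 and GADD45A, a stress gene, of -0.59. Tested singly, 4 rose and 6 fell with siCyclinK#1 (26.8% and 18.1% of all tested genes), and 2 rose and 7 fell with siCyclinK#2 (19.8% and 15.2%).

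Of 11 transcripts beside MYC on 8q24, 4 were tested, and 3 fell, where 11.5% of all tested genes did. PVT1, the long noncoding RNA next to MYC, had an FPKM of 3.49, 2.98 and 2.88 with scrambled siRNA, 2.32, 1.92 and 1.99 with siCyclinK#1, and 2.19, 2.38 and 2.11 with siCyclinK#2. Its siRNA libraries lay below the scrambled ones (log2 difference -0.51, adjusted p = 0.00551 from limma), with no swing like that of MYC. FAM49B had a difference of -0.71.

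MYC belongs with the immediate early genes and other genes of unstable mRNA, of which 23 of 25 were tested. With both siRNAs 7 rose and 3 fell, or 43.5% against 28.6% of all tested genes, with a median of 0.18 beside 0.06. Most of this list averaged 1 FPKM or more, a level at which 5192 of 11243 genes were called when fitted alone. BTG2, an antiproliferative gene, rose by 2.32, the stress factor ATF3 by 1.33 and KLF4 by 1.12, while FOSL1, an AP-1 subunit, had a difference of -1.75. With siCyclinK#1 the differences of BTG2 and FOSL1 were 3.33 and -2.71, and FOSL1 had -0.78 with siCyclinK#2. Tested directly, the siRNAs differed by 2.04 for BTG2 and -1.93 for FOSL1 (adjusted p = 5.96e-07 and 2.39e-06 from limma). The number of calls in this list fell to 6 without scrambled library 1 and to 5 without scrambled library 2 or 3.

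**Figure D5:**
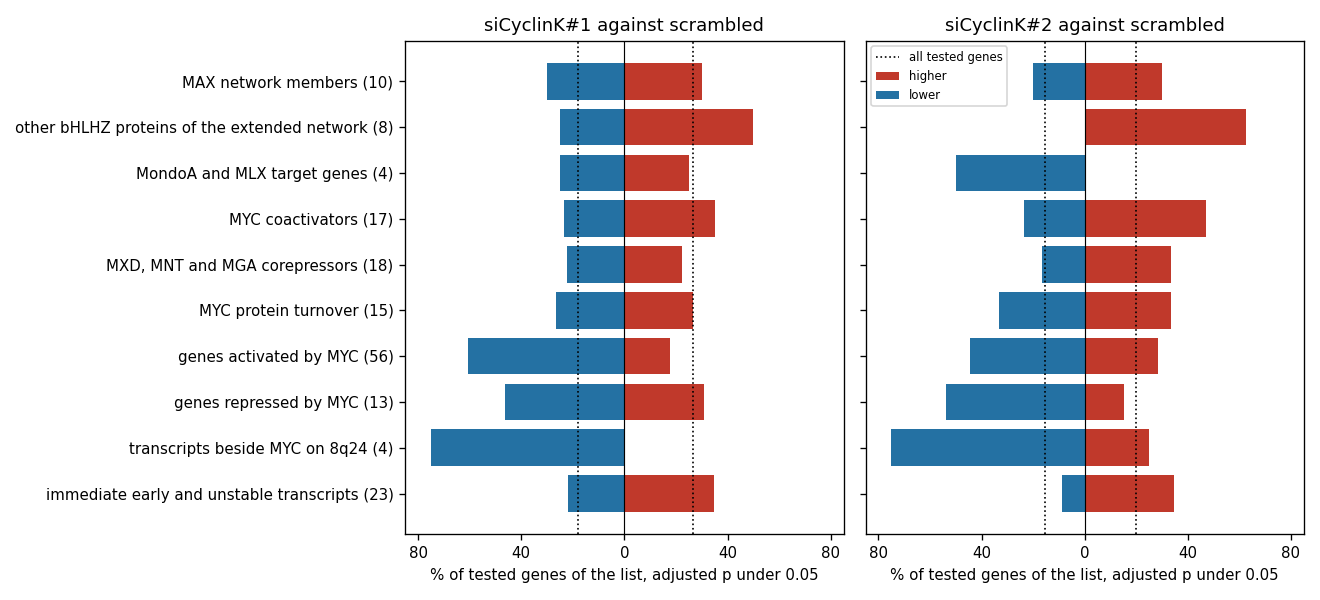
Percent of the tested genes of each list that were higher (red, right) or lower (blue, left) at an adjusted p under 0.05 with siCyclinK#1 and siCyclinK#2 against scrambled siRNA; the number of tested genes stands after the name, and dotted lines give the percent of all tested genes (26.8% higher and 18.1% lower with siCyclinK#1, 19.8% and 15.2% with siCyclinK#2). The MYC-activated list has 34 of 56 genes lower with siCyclinK#1. The list named as other bHLHZ proteins also holds BHLHE40, ARNTL and CLOCK, which are not of that class.

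The genes whose level over the 9 libraries was most like that of MYC, by Pearson's r on log2(FPKM + 0.1) among 11243 genes, were the row of LTB4R2, NOP9 and LTB4R (r = 0.842), MEF2A and CENPO (both 0.834), the row of MYZAP, POLR2M and GCOM1 (0.818) and that of ZNF444 and AC024580.1 (0.817). By the deviations from the group means they were NDUFC1 and FTLP3 (both 0.958), DHRS11 (0.951), TIAM1 and LHX2 (both 0.95). For MXI1 the closest was TANK (r = 0.976), and the row of GTF2H3 and AC117503.2 (0.895), AC022211.2 (0.874) and WHAMMP2 (0.859) were also among the closest. For MAX they were FKBP1C, ACSF3, ING4, AGO1 and ARG2 (0.875 to 0.84). These are descriptions over 9 libraries that share their groups, chosen as the highest of 11243 values.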

How the data were processed

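RNA was measured in 9 libraries of A549 cells, grouped and numbered by their sample titles. The values are FPKM, one deposited table per library, which the authors made from paired reads with StringTie (version 1.3.3b per the submitters' processing notes); the aligner and the annotation release are not given in the sources used here. Of 33065 gene identifiers 33012 were in GENCODE 29, and 32512 had identical GRCh38 coordinates. StringTie loci with no reference gene (25125) were left out, 1344 rows joined several genes, and rows of one gene were summed (47 genes). After a filter on low values (0.1 FPKM or more in 3 or more libraries), log2(FPKM + 0.1) was fitted in R 4.3.3 by limma 3.58.1 (eBayes with trend), with Benjamini-Hochberg adjustment over 21048 genes. Differences on this scale understate those of low genes. Both siRNAs together were fitted as 2 groups, and single siRNAs as 3 groups sharing the spread. Single members had exact permutation tests in scipy 1.17.1. Reads were recovered from the steps of low values, 97.1% to 97.5% of which were whole within 0.02, and replicates differed by more than sampling noise. The fit of both siRNAs was tested on simulated data. It recovered 66 of 100 genes changed by 1 on the log2 scale and 80 of 100 changed by 2, and called 11 unchanged genes. A member that did not pass may therefore still have changed. The members and gene lists were chosen with earlier results of these data known. Named were every member, CCNK, the 4 or fewer genes of each list with the largest differences over both siRNAs among those called and averaging 1 FPKM or more, and the 5 genes most correlated with MYC, MXI1 and MAX, of which 1 is not reported here. Other genes named (the overlapping PSMC3IP and PRELID1, the MondoA targets ARRDC3, TXNIP and ARRDC4, and those with a wider spread than MYC) were chosen after their values were seen. Alternatives were other pseudocounts, filters, rescalings, eBayes settings, row choice, threshold, a replicate block and leaving out each library.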

Additional observations from a re-analysis of the deposited data

Results flagged for a closer look

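The direct test of siCyclinK#1 against siCyclinK#2 (limma, Benjamini-Hochberg adjustment) called 2 members and 83 of the 164 tested list genes. Given here are the members and the 19 called genes that the text names for their difference over both siRNAs. Larger differences between the siRNAs are therefore left out. Values are given as the log2 level with siCyclinK#1 minus that with siCyclinK#2. MXD4 differed by 1.06 and MNT by 0.30. Among the related genes and cofactors the difference was 0.30 for ARNTL, 0.53 for ARRDC2, -0.19 for RUVBL2, 0.13 for HDAC1 and -0.45 for E2F6. Among turnover genes it was -0.34 for the CIP2A row, 0.90 for FBXO32 and 0.39 for GSK3B. Among genes that MYC activates or represses it was -0.86 for NOLC1, -0.65 for PPAT, -0.19 for HSPD1, 0.32 for CEBPA and -0.30 for CCND1. On 8q24 it was -0.80 for FAM49B. Among immediate early genes it was -1.93 for FOSL1, 0.80 for KLF4 and 2.04 for BTG2. The A549 markers AKR1B10 (a row shared with AKR1B15) and ALDH1A1 differed by -0.40 and -0.15. Of all tested genes 29.4% were called in this test.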

How the results depend on the processing

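Over 20 alternatives, 714 of 796 values of the members kept their direction and side of the threshold, and the cause of the other changes was not tested. By the rule of the methods (more than 3-fold and p below 0.01, taken as the p without adjustment) 0 members were called in each of the 4 comparisons, while with both siRNAs together 1 list gene was called among those repressed by MYC, 2 among the immediate early ones and 0 in the other lists. With 1 library left out, 4 to 6 members were called with both siRNAs, 5 to 6 with siCyclinK#1, 5 to 6 with siCyclinK#2 and 1 to 3 between the siRNAs, and with median-ratio rescaling 1 between the siRNAs. Calls among immediate early genes ranged from 5 without scrambled library 2 or 3 to 6 without library 1, against 10 with all libraries. eBayes without trend called 2 MondoA and MLX targets, against 1. Under median-ratio and quantile rescaling the difference of MAX over both siRNAs was -0.0155 and -0.0225, and those between the siRNAs were -0.0342 and -0.01 for the MXD1 row and -0.0501 and -0.0542 for MXD3. With 1 library left out, values that changed sign ranged over both siRNAs from -0.0268 to 1.62 for MYC and -0.033 to 0.211 for MAX. They ranged with siCyclinK#1 from -0.474 to 1.68 for MYC, and with siCyclinK#2 from -0.491 to 1.56 for MYC, -0.259 to 0.0159 for MYCL and -0.441 to 0.061 for MAX. Between the siRNAs they ranged from -0.952 to 1.09 for MYC, -0.114 to 0.00533 for MYCL, -0.59 to 0.0418 for MXI1, -0.0075 to 0.102 for the MXD1 row and -0.024 to 0.0423 for MXD3. Same-numbered libraries did not deviate together (r from -0.071 to 0.038 over 9 pairs). These correlations cannot tell whether such libraries were prepared together, and the main fit used no pairing. With the replicate number as a block, 4 members were called with both siRNAs (MXD4 at adjusted p = 0.0873 and MLX at 0.0554 from limma were lost), 5 with siCyclinK#1 (MLX at 0.0583 was lost), 5 with siCyclinK#2 and 2 between the siRNAs, and 6 immediate early genes. The lowest library of MYC had 165 recovered reads, and MYCL had 11 to 24 reads a library. The part of depth in these results was not tested.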
